A study of Fragaria x ananassa with 3 samples.

Results

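The guide strands of the microRNA (miRNA) family miR156 in strawberry fruit, and the transcripts at which a degradome library placed their cleavage, are described here. The members were all mature names of miR156 in the small RNA table that do not carry the mark of the 3p arm, together with the candidate PC-5p-280652_13, whose sequence is that of a miR156 guide. There were 8 such names among 1310 in the table. Fruit of *Fragaria x ananassa* L. cv. Zhangji, harvested at commercial maturity and free of injury, was kept in bagged trays at 20 °C and about 85% relative humidity. The samples were 1 small RNA library of fruit stored for 0 h, 1 of fruit stored for 24 h, and 1 degradome library in which fruit of both storage times was mixed. With 1 library per storage time no test across samples was possible, and no p-value is given for a change. The 95% intervals printed with the values (Poisson intervals of read counts, Clopper-Pearson intervals of shares, and conditional binomial intervals of the ratio of a pair of counts) cover counting error only, and reads amplified by PCR are not independent molecules. The listed names held 3006293 raw reads at 0 h and 2998588 at 24 h. The sources used here do not give the number of fruits in a library, and fewer cells and less RNA per cell cannot be told apart in such bulk samples. A small RNA table holds no mRNA markers, so the labelled tissue could not be checked from it.

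miR156 is one of the oldest and most abundant miRNA families of land plants. A plant miRNA is cut from the stem of a hairpin transcript as a duplex, of which the guide strand is loaded into an Argonaute protein while the partner strand is mostly lost. The guide pairs with a complementary stretch of a messenger RNA, and Argonaute slices the target near the middle of the duplex. In Arabidopsis and other plants the targets of miR156 are SPL transcription factors (SQUAMOSA promoter binding protein-like), which promote the change from the juvenile to the adult phase and flowering, and in tomato a member of this group (the Cnr locus) acts in fruit ripening. Downstream of SPL stands miR172, which acts on AP2-like factors. A degradome library sequences the 5′ ends of cut messenger RNAs, so that a pile of ends opposite the middle of a guide marks a candidate cleavage site.

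The sequences show how close the 8 names stand. They are given as DNA letters from the 5′ end, as the table holds them, and bases 2 to 8 (the seed) are in capitals.
mdm-miR156a_L+1: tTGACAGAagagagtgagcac
ptc-miR156j_1ss15AT: tTGACAGAagatagtgagcac
mdm-miR156a_L+1R+1: gTGACAGAagagagtgagcact
mdm-miR156ac_L+1_1ss17AG: tTGACAGAagatagagggcac
mdm-miR156ac_L+1: cTGACAGAagatagagagcac
mdm-miR156b: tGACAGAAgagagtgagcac
sbi-miR156e_L+1_1ss6AG: tTGACGGAagagagcgagcac
PC-5p-280652_13: tTGACGGAagagagcgagcat

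The 8 names fell into 3 seeds. The seed TGACAGA was shared by the first 5 names, mdm-miR156b had GACAGAA, and the seed TGACGGA was shared by sbi-miR156e_L+1_1ss6AG and PC-5p-280652_13. In these names the prefix gives the plant whose database entry was matched (mdm apple, ptc poplar, sbi sorghum), L+1 and R+1 an added base at the left or right end, and 1ss a substitution. mdm-miR156b has 20 nt and is mdm-miR156a_L+1 without its first base, so its seed is that of the longer name moved by 1 base. mdm-miR156a_L+1R+1 has 22 nt and the other 6 names have 21 nt. Counted from 1 at the 5′ end of mdm-miR156a_L+1, ptc-miR156j_1ss15AT differs by G12T and sbi-miR156e_L+1_1ss6AG by A6G and T15C. mdm-miR156a_L+1R+1 differs by T1G and an added last base. The mdm-miR156ac names differ by more, mdm-miR156ac_L+1_1ss17AG by G12T, T15A and A17G, and mdm-miR156ac_L+1 by T1C, G12T and T15A. PC-5p-280652_13 differs from sbi-miR156e_L+1_1ss6AG in its last base only, C21T.

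The study's listings place the 8 names at 8 hairpin loci of the *Fragaria vesca* genome (build 1.0). The hairpins of the 4 most abundant names are printed because they show which guides the genome of this relative encodes. The stretch in capitals is the place of the guide.
mdm-miR156a_L+1, within scf0513058:367216-367476, plus strand: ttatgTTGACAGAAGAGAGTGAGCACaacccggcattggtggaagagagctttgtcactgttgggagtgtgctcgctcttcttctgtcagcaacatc
mdm-miR156b, scf0512968:1051280-1051379, plus strand: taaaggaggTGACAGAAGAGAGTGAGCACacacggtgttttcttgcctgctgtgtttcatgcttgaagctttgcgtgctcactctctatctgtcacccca
ptc-miR156j_1ss15AT, scf0513135:1782924-1783018, minus strand: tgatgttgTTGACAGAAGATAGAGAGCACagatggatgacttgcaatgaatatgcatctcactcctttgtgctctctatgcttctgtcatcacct
sbi-miR156e_L+1_1ss6AG, within scf0513091:124124-124384, minus strand: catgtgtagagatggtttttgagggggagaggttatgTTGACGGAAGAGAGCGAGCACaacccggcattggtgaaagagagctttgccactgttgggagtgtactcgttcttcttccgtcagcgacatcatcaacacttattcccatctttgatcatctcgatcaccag

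Only 3 of the 8 guide sequences were found without a mismatch in these hairpins. mdm-miR156a_L+1 matched 3 loci exactly, and mdm-miR156b matched 4, which are the same 3 and the locus on scf0512968. The listing also puts mdm-miR156a_L+1 on scf0513151, where the hairpin differs from the read by C1T and T20A. On scf0512968 the hairpin differs from the longer name by G1T, written from hairpin to read. sbi-miR156e_L+1_1ss6AG matched 1 locus exactly. The third most abundant member, ptc-miR156j_1ss15AT, matched none of the 8 loci: it differs from its own hairpin by A15T and from the 3 that match mdm-miR156a_L+1 exactly by G12T. The guide that its hairpin encodes, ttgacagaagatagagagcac, was not among the 1310 names of the table. PC-5p-280652_13 and sbi-miR156e_L+1_1ss6AG were placed at the same hairpin. Some loci lay close together: 2 listed windows were 271 bases apart on scf0513058, and 2 were 517 bases apart on the minus strand of scf0513091. Folded with RNAfold, the hairpins as listed had minimum free energies from -79.6 to -47.1 kcal/mol. The *Fragaria vesca* build stands in for the genome of the cultivated octoploid strawberry, which was not used here.

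The 8 names together were the largest part of the listed miRNA reads of the fruit at both storage times. They held 1913393 raw reads at 0 h, 63.6% of all listed reads (63.6 to 63.7%), and 1589028 at 24 h, 53.0% (52.9 to 53.0%). Of these reads, 3 names held nearly all. The most abundant of all 1310 names in both libraries was mdm-miR156a_L+1, which counted 1066002 raw reads at 0 h and 947170 after 24 h. mdm-miR156b had 578015 and 440209 raw reads, and stood at rank 2 at 0 h and rank 3 at 24 h, when mdm-miR166e (404322 and 542884), of a family that targets HD-ZIP III transcription factors, stood above it. ptc-miR156j_1ss15AT had 268627 and 200977 raw reads and moved from rank 4 to rank 5. These 3 names made up 99.96% of the guide reads in either library, and their order was the same at both times.

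The other 5 names were far rarer than the first 3 and together counted 749 raw reads at 0 h and 672 at 24 h. sbi-miR156e_L+1_1ss6AG had 522 and 499 raw reads. mdm-miR156a_L+1R+1, the form of 22 nt, had 105 and 84. mdm-miR156ac_L+1_1ss17AG had 82 and 64. These last 2 neighbours in the order were not separated by counting error, since their Poisson intervals overlapped at 0 h (85.9 to 127 against 65.2 to 102) and at 24 h (67.0 to 104 against 49.3 to 81.7). mdm-miR156ac_L+1 had 28 and 23. PC-5p-280652_13 had 12 and 2. The intervals of this last pair overlapped at 0 h (18.6 to 40.5 against 6.20 to 20.96) and not at 24 h (14.6 to 34.5 against 0.242 to 7.22). In the table a name with several precursors is repeated (mdm-miR156a_L+1 on 3 lines and mdm-miR156a_L+1R+1 on 2) with the same reads on each line, so the reads cannot be divided among loci.

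**Figure D1:**
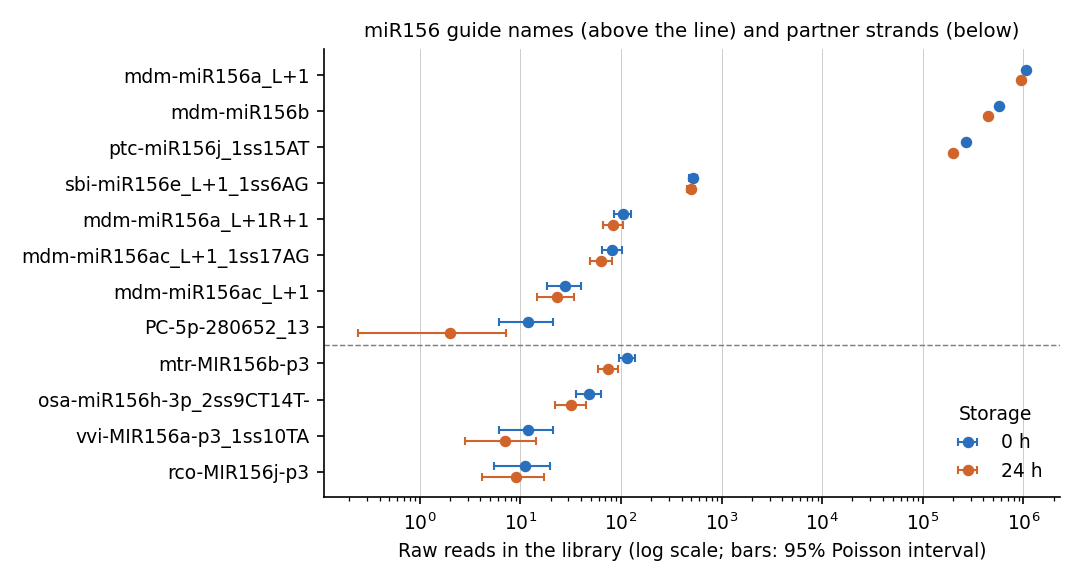
Raw reads of the 8 miR156 guide names and the 4 partner strands named miR156 (x axis, log scale) in the library of 0 h (blue) and of 24 h (orange), with 95% Poisson intervals as bars. The first 3 names lie at 200977 reads or more and all others at 522 or below, and every name has fewer reads at 24 h.

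Reads of 20 nt and 21 nt, nearly all with a 5′ T (U in the RNA), made up the family. In Arabidopsis such a 5′ base favours loading into AGO1. mdm-miR156b alone forms the 20 nt class, which was 30.2% of the guide reads at 0 h and 27.7% at 24 h. The 22 nt form held 0.00549% and 0.00529%. A 5′ T stood on 99.99% of the guide reads in both libraries, against 87.8% and 88.0% of the reads of all other names. By seed, TGACAGA held 69.8% of the guide reads at 0 h and 72.3% at 24 h, GACAGAA 30.2% and 27.7%, and TGACGGA 0.0279% and 0.0315%.

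All 8 guide names had lower normalized reads at 24 h than at 0 h, most of them by a small factor. Of the 1248 names that reached 10 raw reads in either library, all 8 members among them, 48.4% were lower at 24 h. The median log2 ratio of the 8 names was -0.45 and that of all names tested was 0.00. Summed, the guides went from 1753792 to 1344634 normalized reads, a ratio of 0.767 (0.765 to 0.768), while all other names together had 1001548 and 1192628, a ratio of 1.19 (1.19 to 1.19). Shares of a library are not independent: where one large group falls the others rise. Within the listed reads the share of the guides differed by -10.65 percentage points, 24 h minus 0 h. Taken of the library totals that the study states, which are far larger, the difference was -2.37 points. In relative terms the fall was not smaller there: the summed ratio was 0.768 scaled by these totals and 0.833 scaled by the listed total.

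Among the 3 abundant names the change was uneven. For mdm-miR156a_L+1 the normalized reads were 977085 at 0 h and 801495 after 24 h, a ratio of 0.820 (0.818 to 0.823). mdm-miR156b had 529802 and 372505, a ratio of 0.703 (0.700 to 0.706). ptc-miR156j_1ss15AT had 246220 and 170067, a ratio of 0.691 (0.687 to 0.695). The interval of mdm-miR156a_L+1 thus lay apart from those of the other 2, by more than counting error. How far such ratios vary between libraries of the same fruit is not known from these data.

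The rarer names gave ratios of similar size with wide intervals. sbi-miR156e_L+1_1ss6AG went from 478 to 422 normalized reads, a ratio of 0.883 (0.779 to 0.9997). mdm-miR156a_L+1R+1 had 96 and 71, a ratio of 0.740 (0.548 to 0.993). For the pair of mdm-miR156ac names the interval included 1, with 75 and 54 normalized reads (0.720, 0.511 to 1.01) for mdm-miR156ac_L+1_1ss17AG and 25 and 19 (0.760, 0.417 to 1.37) for mdm-miR156ac_L+1. In all, the counting interval lay wholly below 1 for 6 of the 8 members, beside 7.21% of the names tested. The intervals narrow with the number of reads, so this count is also a matter of depth. It depended on the scaling too: the upper bounds of sbi-miR156e_L+1_1ss6AG and mdm-miR156a_L+1R+1 lay just under 1. With raw reads, the total of listed names, TMM factors or DESeq2 size factors 4 members had an interval wholly below 1. The shares of all names tested were then 4.89%, 4.89%, 6.57% and 6.73%, in this order.

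PC-5p-280652_13 was the 1 member past a 2-fold difference, and it rests on few reads. Names lower at 24 h by more than 2-fold were 3.69% of those tested. This candidate had 11 normalized reads in the first library and 1 in the second, a ratio of 0.0909, but from its raw reads (12 and 2) times the factor of each library the ratio was 0.154 (0.0167 to 0.691). The interval reached beyond 2-fold lower into smaller differences, and with a minimum of 50 raw reads the name was not tested and 0 members were past 2-fold. Its ratio to sbi-miR156e_L+1_1ss6AG, the name at the same hairpin, was 2.30 reads per 100 (1.18 to 4.05) at 0 h and 0.401 (0.0484 to 1.46) at 24 h.

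**Figure D2:**
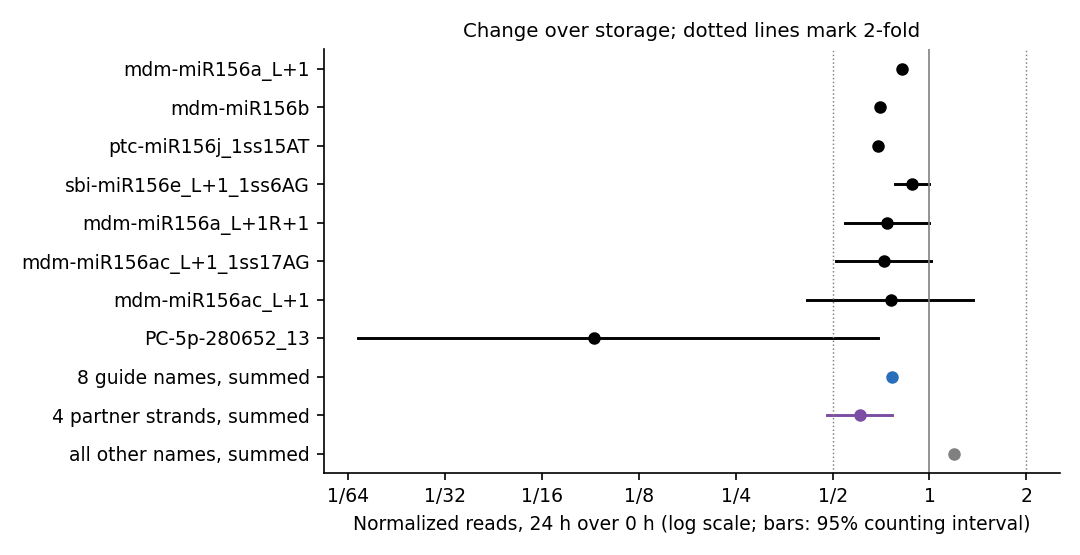
Ratio of normalized reads at 24 h to those at 0 h (x axis, log scale) for each guide name (black), the 8 guide names summed (blue), the 4 partner strands named miR156 summed (purple) and all names but the guides summed (grey), with 95% counting intervals as lines and 2-fold differences dotted. The guides lie left of 1, at 0.820 to 0.691 for the abundant names, and the rest of the table at 1.19.

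Most names of this abundance were not lower at 24 h in this pair of libraries. Of the 40 names that reached 1000 raw reads in either library, the 3 abundant guides included, 13 were lower at 24 h, and the median log2 ratio of the 40 was 0.32. Past 2-fold were 5 of them, none of which was a guide of miR156. Outside the family, 37 names reached 1000 raw reads. The 5 of them whose log2 ratio was closest to that of the summed guides (-0.38) were mdm-miR167b_R+1_1ss21AC (-0.35), PC-5p-437_6958 (-0.28), mdm-miR164e (-0.28), PC-5p-224_13566 (-0.26) and PC-3p-1366_2253 (-0.51). This likeness is a comparison of 2 libraries and describes no more than that.

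**Figure D3:**
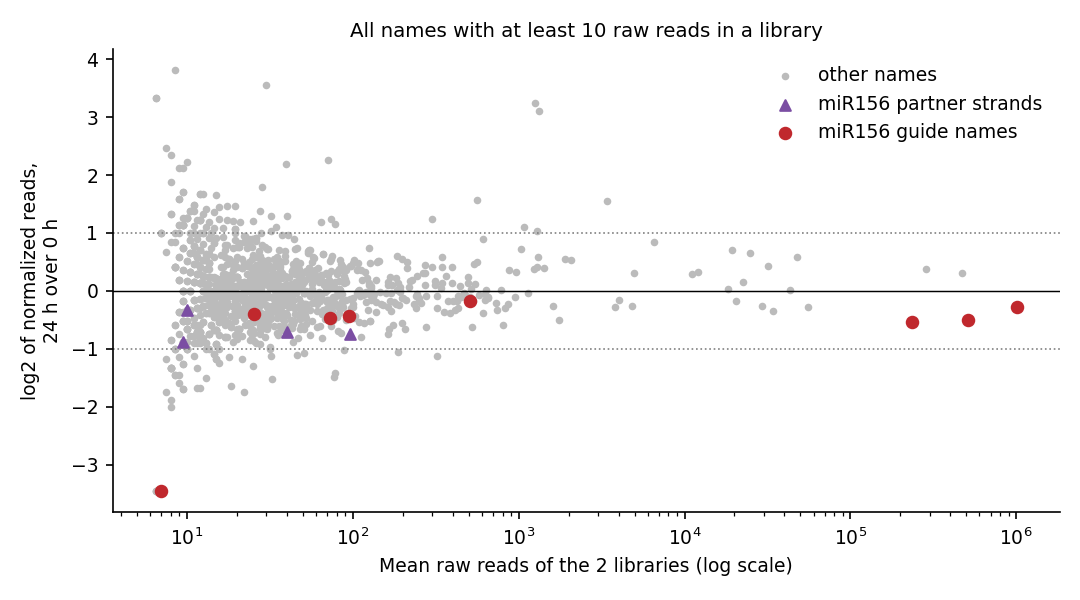
Log2 of the ratio of normalized reads, 24 h over 0 h (y axis), against the mean raw reads of both libraries (x axis, log scale) for the 1248 names tested, with guide names in red, partner strands named miR156 in purple and 2-fold differences dotted. The 3 abundant guides lie between -0.53 and -0.29 at the right end, and the red point at -3.46 on the left is PC-5p-280652_13 with 12 and 2 raw reads.

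The balance among the 3 abundant guides moved toward the 21 nt form mdm-miR156a_L+1. This comparison is made within each library and needs no scaling between them. For each 100 reads of mdm-miR156a_L+1 there were 54.2 reads of mdm-miR156b at 0 h (54.0 to 54.4) and 46.5 at 24 h (46.3 to 46.6), and the ratio at 24 h was 0.857 times that at 0 h (0.853 to 0.861, Wald interval of the log odds ratio). For ptc-miR156j_1ss15AT there were 25.2 reads (25.1 to 25.3) and 21.2 reads (21.1 to 21.3) for each 100, a change by a factor of 0.842 (0.837 to 0.847). Between mdm-miR156b and ptc-miR156j_1ss15AT the balance moved far less: 46.5 reads of the latter per 100 of the former at 0 h and 45.7 at 24 h, a factor of 0.982 (0.976 to 0.989). For sbi-miR156e_L+1_1ss6AG against mdm-miR156a_L+1 the factor was 1.08 (0.952 to 1.22), and for mdm-miR156a_L+1R+1 it was 0.900 (0.676 to 1.20), so that neither differed beyond counting error.

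**Figure D4:**
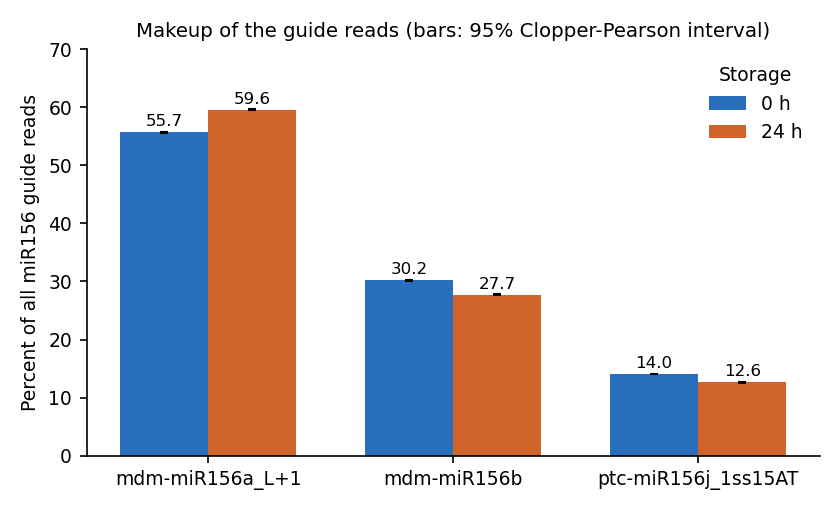
Percent of all miR156 guide reads (y axis, from 0) held by each of the 3 abundant names at 0 h (blue) and 24 h (orange), with 95% Clopper-Pearson intervals too narrow to see at this scale. mdm-miR156a_L+1 held 55.7% at 0 h and 59.6% at 24 h, mdm-miR156b 30.2% and 27.7%, and ptc-miR156j_1ss15AT 14.0% and 12.6%.

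The partner strands that carry the miR156 name, released from the same hairpins, were rare and were also lower at 24 h. There were 4 such names, whose raw reads summed to 187 at 0 h and 123 after 24 h. For each read of these 4 names there were 10232 guide reads at 0 h and 12919 at 24 h. Summed, their normalized ratio was 0.608 (0.480 to 0.766). mtr-MIR156b-p3, listed on the hairpin of mdm-miR156b, went from 116 to 75 raw reads, a normalized ratio of 0.594 (0.440 to 0.805). osa-miR156h-3p_2ss9CT14T- had 48 and 32 (0.614, 0.381 to 0.983). The remaining 2, vvi-MIR156a-p3_1ss10TA with 12 and 7 raw reads and rco-MIR156j-p3 with 11 and 9, had intervals that included 1. The 4 were chosen by name, which leaves out the candidate PC-3p-2227_1439. Its sequence lies in the 3p arm of miR156 hairpins on scf0513058 and scf0513091. It had 432 and 214 raw reads, more than the 4 names together, so the guide reads per partner read above are too high. Its log2 ratio was -1.13, and the interval of the ratio was 0.386 to 0.540.

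Other names close in sequence to the guides were rare. Names outside the family were looked up that had 1 of the 3 seeds or lay within 3 edits of a member, and 7 were found, all candidates and all with a shared seed. Within 3 edits there was 1, PC-5p-47125_76 (ctgacagaagaagagtgagca), with 131 raw reads in the first library and 132 in the second, a normalized ratio of 0.933 (0.725 to 1.19). The other 6 lay 8 to 10 edits away and had 4 to 55 raw reads in a library.

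Families that stand near miR156 in its pathway, or that were abundant in the fruit, were described from fixed lists, by their summed normalized reads. miR172, downstream of SPL in Arabidopsis, had 7 names and a summed ratio of 0.924 (0.889 to 0.962), with none past 2-fold, 3 lower, 3 higher and 1 equal. Its most abundant name, mdm-miR172g_R+1, went from 4059 to 3965 raw reads. miR535, a relative of miR156 with SPL targets in rice, was present as 1 name, mdm-miR535d_1ss7CT, with 30627 and 27761 raw reads and a ratio of 0.837 (0.823 to 0.851), and no name of miR529 was listed. Like the guides, miR164, whose targets are NAC factors, was lower in sum (0.826, 0.817 to 0.836, 2 of 3 names lower).

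The other 5 lists were higher in sum, although not past 2-fold. miR166 had a ratio of 1.24 (1.24 to 1.25, 4 of 4 names higher) and miR167, which targets ARF factors, 1.04 (1.03 to 1.05, 3 of 6 names higher, with 2 of the lower names past 2-fold). miR168, which targets AGO1, had 1.49 (1.47 to 1.51, 2 of 2 names higher). miR162, which targets DCL1, had 1.16 (0.936 to 1.43, 1 of 1), an interval that includes 1. miR2911, derived from ribosomal RNA in other plants, had 1.62 (1.60 to 1.65, 2 of 2). Past 2-fold higher were 0 names in all 8 lists. Such ratios share the libraries of the guides and are no independent measure of them.

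In the degradome of the mixed fruit every one of the 8 guide names had at least 1 entry. These are not 8 separate findings, since 7 of the names were listed at the same position of gene07187-v1.0-hybrid, with 2 reads. The study reports that most of its miRNAs had no detected cleavage signature, and the share of all names with an entry was not counted here. Of the 152 degradome entries, 22 belonged to the guides, and since the names nearly repeat each other these came down to 7 distinct sites on 5 gene models. The reads at the 7 sites, as normalized by the authors, summed to 15, which is 2.32% of the reads at all 111 distinct sites. The gene models gene07187-v1.0-hybrid, gene26117-v1.0-hybrid, gene06295-v1.0-hybrid and gene04565-v1.0-hybrid carried no annotation in the table, like 47.6% of its 103 targets, and gene17434-v1.0-hybrid was annotated as a transposable element gene. Whether any of them is an SPL gene was not tested, since no sequence or annotation of these gene models was at hand.

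The site with most reads lay on gene07187-v1.0-hybrid, and it belonged to the 20 nt name. At position 1152 there were 7 degradome reads (2.81 to 14.4), and mdm-miR156b aligned over positions 1142 to 1161 with a score of 1 (a penalty for mismatches and G:U pairs, so lower is closer). The site was of category 0, the class for the single highest point of a transcript. The deposited P of this entry was 0.0115, and 0.0407 after Benjamini-Hochberg adjustment over the 152 entries. The 152 entries are only the listed hits, and they repeat sites for names of nearly the same sequence. The adjusted value therefore controls no error rate over the whole search. This entry was the 1 member entry of category 0, beside 31.6% of all entries, and the 1 member entry with an unadjusted P under 0.05, beside 32.2%. Among the 111 sites 17 had more reads.

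The 7 other names were placed 1 base further, at position 1153 of the same gene model, with 2 reads (0.242 to 7.22) in category 2, the class of points above the median of a transcript but below its highest. Their scores ran from 1 for mdm-miR156a_L+1 to 3 for ptc-miR156j_1ss15AT, mdm-miR156a_L+1R+1 and mdm-miR156ac_L+1. The listed site lay opposite base 10 of the guide in all 22 entries, so that a guide without the first base is given a site 1 base away. The site of the 20 nt guide had 3.50 times the reads of the other (0.666 to 34.5), an interval that includes 1, and the pair was not distinguishable at this depth. Nor are the 7 reads particular to mdm-miR156b: the candidate PC-5p-5963_595, with 878 and 779 raw reads, was listed at the same position with a score of 4. That entry was also of category 0, and its deposited P, 0.00373, was lower. The candidate PC-5p-47125_76 was listed at position 1153 and at position 946 of gene06295-v1.0-hybrid, with a score of 4 at each.

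The other sites rested on 1 or 2 reads. On gene26117-v1.0-hybrid the same shift was seen, with mdm-miR156b at position 1137 (score 1) and 4 of the 21 nt and 22 nt names at 1138 (scores 2 to 4), each with 1 read in category 4. On gene06295-v1.0-hybrid the 7 names other than mdm-miR156b shared position 946 with 1 read (scores 2 to 4). gene04565-v1.0-hybrid was listed for mdm-miR156b only, at position 1083 with a score of 1.5 and 1 read. gene17434-v1.0-hybrid was listed for ptc-miR156j_1ss15AT only, at position 1535 with a score of 4 and 2 reads in category 2. A single read in category 4, the class of sites with 1 read, allows 0.0253 to 5.57 reads by its Poisson interval. Such sites made up 4 of the 7, beside 47.7% of all 111 sites.

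Apart from gene17434-v1.0-hybrid, the closest alignment at each site belonged to 1 of the 2 most abundant names. At the 3 sites listed for both, mdm-miR156a_L+1 scored 1 on gene07187-v1.0-hybrid, 2 on gene06295-v1.0-hybrid and 2 on gene26117-v1.0-hybrid, where ptc-miR156j_1ss15AT, which differs from it by G12T, scored 3, 4 and 4. The penalty was therefore 2 higher for the variant at each of these sites. mdm-miR156b had 1, 1 and 1.5 at its own 3 sites. As the degradome was made from mixed fruit, its reads give no comparison of 0 h with 24 h.

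**Figure D5:**
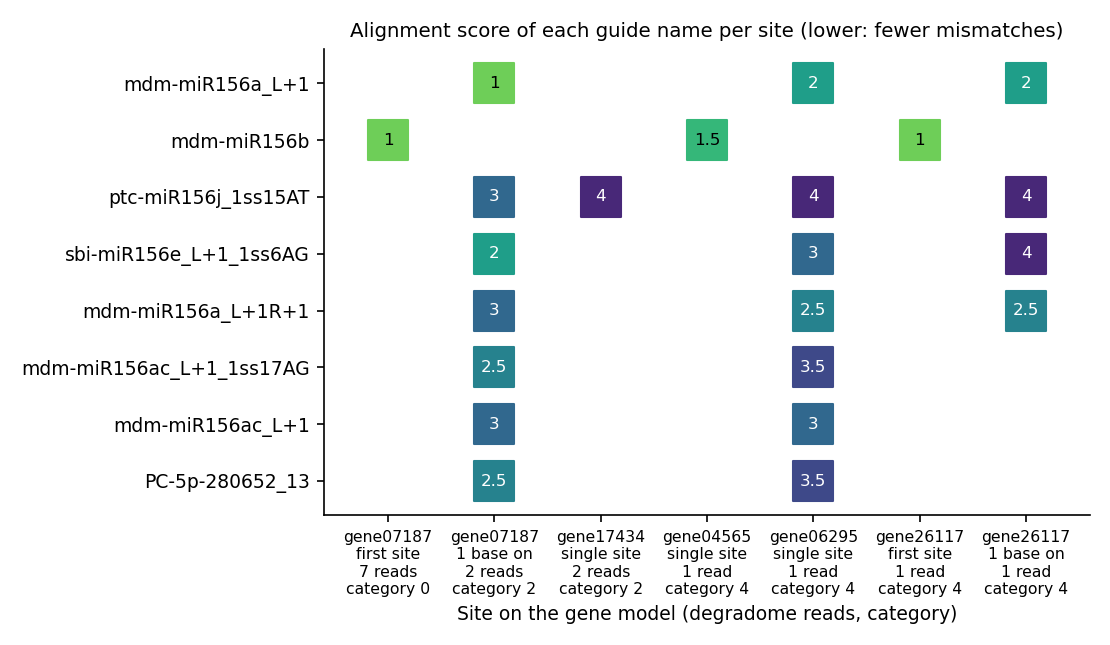
Alignment score of each guide name (rows, most abundant at the top) at each of the 7 listed sites (columns, with gene model, degradome reads and category), where lower scores are closer matches and an empty cell means no entry. mdm-miR156b stands alone at its 3 sites, among them the first site of gene07187 with 7 reads, and the other names share sites with 1 or 2 reads.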

How the data were processed

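Each storage time had 1 small RNA library, and the mixed fruit had 1 degradome library. Raw counts per name are the authors' output of ACGT101-miR 4.2, run after removal of adaptors, mRNA, Rfam and repeat sequences, against miRBase 19 and the *Fragaria vesca* genome 1.0. The normalized score of each miRNA is the authors' whole-number normalized read; the sources used here do not give its formula, and it equals raw reads times 0.917 (0 h) or 0.846 (24 h) to within 1 read for 1308 of 1310 names in each library. The factors were taken over names that reached 1000 raw reads. For degradome entries, the p-value, category and alignment score come from the authors' run of CleaveLand 3.0 and ACGT301-DGE 1.0 on the gene models of that genome. The signal at a site is the deposited number of degradome reads, which the study labels Rep_Norm reads. The label marks them as normalized, and their sum over all sites, 645.7, is not a whole number. At the sites of the guides they are whole numbers, and the intervals treat them as counts.

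Each name was counted once. Ratios are 24 h over 0 h on the normalized reads, for names that reached 10 raw reads in either library, and 2-fold was the threshold. A normalized read of 0 was replaced by the value of 3 raw reads. Ratio intervals were made from raw reads and the factors. edgeR's quasi-likelihood test needs replicates and was not run; edgeR 4.0.16 (TMM) and DESeq2 1.42.0 gave alternative scalings only. Other alternatives were raw reads, 2 library totals, other filters, a pseudocount of 1, and other ways of counting sites. Named were all members and their degradome targets, the partner strands that carry the miR156 name, names with a shared seed or within 3 edits, the lists miR172, miR535 with miR529, miR166, miR164, miR167, miR168, miR162 and miR2911, and the 5 names most alike. Members and lists were chosen with earlier results of these data known. PC-5p-5963_595, PC-3p-2227_1439, mdm-miR166e and the guide encoded by the hairpin of ptc-miR156j_1ss15AT were named after their values were seen. Hairpin sequences and positions come from the study's supplementary listings. RNAfold 2.7.2, Python 3.11.15 with scipy 1.17.1, and R 4.3.3 were used. The code for ratios and intervals was run on simulated reads with counting noise only, which says nothing of variation between libraries.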

Additional observations from a re-analysis of the deposited data

How the results depend on the processing

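All 8 members stayed lower at 24 h under each of the 6 other scalings (48 of 48 values below 1). These values are not separate results, since a scaling multiplies the ratios of all names by 1 constant. Relative to the main scaling the constants ran from 1 (the main factors on raw reads) to 1.086 (the listed total). The summed guide ratio was 0.831 on raw reads, 0.833 scaled by the total of listed names, 0.777 with TMM factors and 0.773 with DESeq2 size factors, against 0.767. The median log2 ratio of all names tested moved from 0.00 to 0.11 on raw reads and to 0.11 by the listed total, and the shift of the summed ratio under both is that of the scaling alone. The members with an interval wholly below 1, recounted after seeing the data, were 6, 5 by the library totals the study states, and 4 with raw reads, the listed total, TMM or DESeq2 factors. Beside them stood 7.21%, 7.05%, and then 4.89%, 4.89%, 6.57% and 6.73% of the names tested, in this order. Without mdm-miR156a_L+1 the summed ratio was 0.699. The number of guides past 2-fold was 1 under every scaling, and 0 with at least 50 raw reads or with a counting interval wholly beyond 2-fold. The difference in the share of the guides was -9.09 percentage points of the known names and -2.37 of the library totals the study states. The 7 degradome sites became 3 in categories 0 to 2 and 1 with P under 0.05, and stood for 22 entries. No paired analysis was possible because each storage time has 1 library. Depth limits the 4 rarest names, with at most 105 raw reads in a library, and every degradome site, with at most 7 reads.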
